A study of Homo sapiens with 10 samples.

Results

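The metallothioneins MT1E, MT1F, MT1G, MT1M, MT1X and MT2A, with the zinc sensor MTF1 and the zinc exporter SLC30A1, were followed across 10 RNA-seq libraries of A549, an established cell line from a human lung adenocarcinoma. These 8 genes were chosen by name, not by a threshold on their values, from a table of 33551 gene rows. Each had a row, 5 of them (MT1F, MT1X, MT2A, MTF1 and SLC30A1) held reads and passed the filter on low counts, and 3 of them (MT1E, MT1G and MT1M) were at 0 counts in each of the 10 libraries. The libraries came from 5 A549 lines: wild type (WT), a line labelled ABCA3 knockout (KO), and lines labelled with the ABCA3 variants L101P, E292V and E690K. ABCA3 is the lipid transporter of lamellar bodies, the organelles that store lung surfactant. Of each line 1 library came from untreated cells and 1 from cells exposed overnight to VSVG LV-ABCA3:GFP, a lentiviral vector for ABCA3 and GFP, at a multiplicity of infection of 20. Cells of all groups were kept in the same serum-containing medium. The labels give 1 library for each line and treatment and 1 line for each genotype, and do not say whether a line is a single clone.

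Metallothioneins are small cysteine-rich proteins that bind zinc and copper and take up toxic metals such as cadmium. When free zinc rises, the zinc-finger factor MTF1 binds metal response elements in the promoters of metallothionein genes and of SLC30A1, which encodes the zinc exporter ZnT1 of the plasma membrane. In lung epithelium, metallothioneins are known as genes that rise with metals, glucocorticoids and oxidative stress.

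The 6 metallothionein members lie in 1 cluster on chromosome 16 (GRCh38, GENCODE release 29). MT2A (ENSG00000125148.6) runs from 56608199 to 56609497, MT1E (ENSG00000169715.14) from 56625475 to 56627112, MT1M (ENSG00000205364.3) from 56632233 to 56633986, MT1F (ENSG00000198417.6) from 56657694 to 56660698 and MT1X (ENSG00000187193.8) from 56682424 to 56684196, all on the plus strand. MT1G (ENSG00000125144.13) runs from 56666731 to 56668065 on the minus strand. MTF1 (ENSG00000188786.9, 37809567 to 37859620) and SLC30A1 (ENSG00000170385.9, 211571568 to 211578742) are both on the minus strand of chromosome 1. Promoter sequences of RefSeq (GRCh38.p14) matched 4 of the 8 members: MT2A, MT1X, MTF1 and SLC30A1.

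The sequences below are shown because they carry the letters through which MTF1 is known to act. Each window of 300 bases, from 250 before to 50 after the RefSeq start, was searched on both strands for TGCACNC and TGCGCNC, the 7 letters of the metal response element core, and the 2 forms cannot overlap at the same start. A match describes letters and is not a measured binding site. Of 35116 promoters of the same length, 29.6% held at least 1 match, 8.60% at least 2, 0.601% at least 4 and 0.0199% at least 8. MT2A had 8 matches, 7 of them before its RefSeq start, MT1X had 4, SLC30A1 had 2 with 1 before its RefSeq start, and MTF1 had 0, which says only that these letters are not in that window. The RefSeq start of MT2A lies inside the GENCODE span given above, so the 7 matches before it lie within that span, whereas the RefSeq start of SLC30A1 lies outside its GENCODE span. Capitals mark the matches, which read GNGTGCA or GNGCGCA where they lie on the opposite strand. The MT1X stretch (chr16:56682220-56682423, plus strand) and the SLC30A1 stretch (chr1:211579162-211579411, minus strand) are given 5′ to 3′ along the gene, followed by the 7 upstream matches of MT2A with up to 10 bases on each side, all from the plus strand of chromosome 16.
MT1X: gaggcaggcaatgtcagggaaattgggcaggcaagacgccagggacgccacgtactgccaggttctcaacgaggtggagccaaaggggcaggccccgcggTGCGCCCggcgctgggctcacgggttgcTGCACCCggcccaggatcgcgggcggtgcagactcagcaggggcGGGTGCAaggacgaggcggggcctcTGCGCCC
SLC30A1: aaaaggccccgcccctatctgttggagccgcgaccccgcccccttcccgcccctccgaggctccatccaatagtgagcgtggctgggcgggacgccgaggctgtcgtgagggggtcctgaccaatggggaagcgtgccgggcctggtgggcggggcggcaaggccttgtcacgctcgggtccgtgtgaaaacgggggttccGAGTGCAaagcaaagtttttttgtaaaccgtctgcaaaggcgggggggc
MT2A, 56608334 to 56608354: ccgcTGCACCCagccccttcc
MT2A, 56608406 to 56608432: cccgcggcccGTGTGCAgagccgggtg
MT2A, 56608421 to 56608447: cagagccgggTGCGCCCggcccagtgc
MT2A, 56608435 to 56608461: cccggcccagTGCGCGCggccgggtgt
MT2A, 56608486 to 56608512: agcgcggggcGTGTGCAggcagcgccc
MT2A, 56608520 to 56608546: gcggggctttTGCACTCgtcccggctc
MT2A, 56608566 to 56608583: cttgccgcgcTGCACTCc

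Depth ranged from 59430095 counts in the untreated to 96811421 in the transduced L101P library, and levels are given as CPM, the counts of a gene scaled to the total of its library. Of the counts from 1 to 10, 80.6% to 82.7% were even in single libraries, so intervals were taken on the count divided by 2, and they cover counting error only. The 5 epithelial markers were above a median of 1 CPM, whereas 1 of 9 alveolar type 2 markers (ABCA3) was, the surfactant genes lying near 0. Of the leukocyte and fibroblast markers 1 of 3 each, and of the endothelial markers 0 of 3, reached a median of 1 CPM, with CD3E at 0. The pair labelled KO went against its labels: ABCA3 was at 600.5 CPM in the library labelled KO untreated and at 25.8 CPM in the one labelled KO transduced, and the EGFP row at 37.9 and 0.0492 CPM. EGFP was present in the other untreated libraries too, from 1.01 CPM in L101P to 70.9 CPM in WT. In their transduced libraries it was at 35.9 CPM in L101P, 153 in WT, 66.8 in E292V and 18.0 in E690K. In E690K it started at 16.3 CPM, and the 95% counting interval of its log2 change spanned 0 (-0.02 to 0.30). ABCA3 went from 1156 to 896 CPM in L101P and rose in WT, E292V and E690K. The vector effect therefore compares labels, not libraries without and with EGFP. As the KO pair stood against its labels, results for the members are also given without it. These are the vector effect, the correlations among the members and the test across all lines. A change within the KO pair keeps its size but has the opposite sign if its 2 labels are exchanged.

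Among the metallothioneins MT2A carried most of the signal. Per kilobase of annotated exons the median level was 85.6 CPM for MT2A, 10.3 for MT1X, 2.18 for MT1F and 0.763 for MT1A, a member of the cluster outside the 8 genes, against 9.62 for SLC30A1 and 2.75 for MTF1. Of the counts summed over the metallothionein rows of the table, MT2A held 85.6% to 91.4%, MT1X 7.48% to 11.8% and MT1F 0.534% to 3.27%. The sum itself lay between 74.5 CPM in untreated L101P and 118 CPM in transduced E292V. The RNA is from bulk cultures, in which fewer cells with a transcript and less of it per cell cannot be told apart.

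Genes with reads and genes at 0 counts alternated along the cluster. Counted from the start of MT4, with 0 counts in all libraries, MT3 lay at 24.0 kb, MT2A at 43.1 kb, MT1E at 60.4 kb, MT1M at 67.2 kb, MT1A at 73.6 kb, MT1B at 86.8 kb, MT1F at 92.6 kb, MT1G at 101.7 kb, MT1H at 104.8 kb and MT1X at 117.4 kb. MT1B was at 0 like MT1E, MT1M and MT1G, MT1H had 0 to 0.0516 CPM and MT1A 0.185 to 0.633 CPM. For a gene at 0 counts, 3 read pairs (6 counts) correspond to 0.0620 to 0.101 CPM in single libraries, so levels below that were not detectable at this depth. Outside the cluster, BBS2 on one side was at 24.3 to 28.7 CPM and NUP93 on the other at 70.0 to 89.1 CPM. Each member has stretches of its own: of all 50-base stretches in its transcripts, 96.98% in MT2A, 98.78% in MT1F, 81.74% in MT1X, 92.9% in MT1E, 90.13% in MT1M and 83.53% in MT1G occurred in no other gene of the annotation. How the authors' counting treated reads that fit several genes, and whether it used strand, is not given in the sources used here. Levels of the members that share sequence, those at 0 counts among them, are therefore uncertain by that much.

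**Figure D1:**
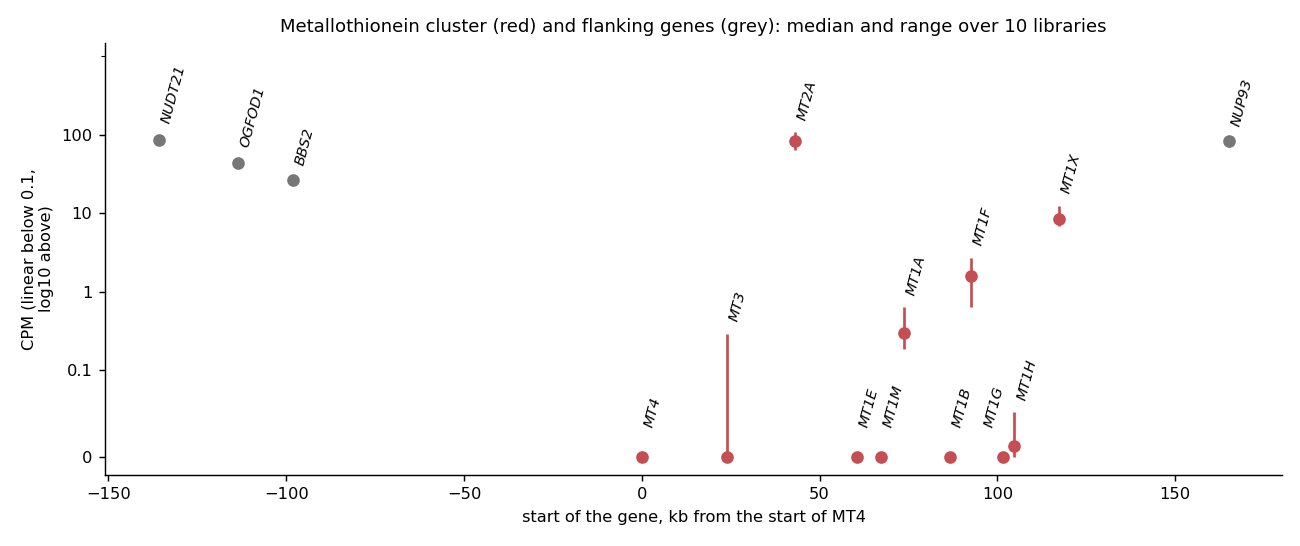
Level in CPM (linear below 0.1, log10 above) of the genes of the metallothionein cluster (red) and its flanking genes (grey) against the distance of their starts from the start of MT4 in kb. Points are medians and lines the range over 10 libraries. MT2A, MT1X and MT1F stand above genes at 0.

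MT2A, which encodes a metal-binding protein of this family, was measured from 3832 to 10270 counts. Its level in the untreated and the transduced library was 82.7 and 87.0 CPM in WT, 66.2 and 71.3 CPM in KO, 64.5 and 90.4 CPM in L101P, 82.3 and 108.3 CPM in E292V, and 86.9 and 98.7 CPM in E690K. The library labelled transduced was the higher one in each line (with the KO labels exchanged, in 4 of 5), while the values of the 5 untreated and the 5 transduced libraries overlapped. Both KO libraries and the untreated L101P library formed the low end, and transduced E292V the high end.

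MT1X, a second member of the same protein family, had 455 to 1202 counts. It was at 8.50 and 8.52 CPM in WT, 8.02 and 8.16 CPM in KO, 7.66 and 12.4 CPM in L101P, 6.92 and 8.86 CPM in E292V, and 9.24 and 9.06 CPM in E690K, untreated and transduced. The transduced L101P library stood above the other 9, which lay between 6.92 and 9.24 CPM.

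MT1F had the fewest counts of the detected members, 60 to 219 in a library. It was at 1.27 and 1.30 CPM in WT, 2.05 and 2.70 CPM in KO, 1.95 and 1.84 CPM in L101P, 0.964 and 0.633 CPM in E292V, and 2.04 and 1.36 CPM in E690K. Both E292V libraries were below all others, and both KO libraries were the highest, the untreated one level with untreated E690K within counting error. Its coefficient of variation over the 10 libraries was 38.0%, against 16.5% for MT2A and 16.8% for MT1X, at counting intervals that are wider for so few reads.

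The sensor and the exporter were steadier. MTF1 was at 21.7 and 23.1 CPM in WT, 22.1 and 21.6 CPM in KO, 23.0 and 21.2 CPM in L101P, 21.8 and 21.5 CPM in E292V, and 22.4 and 22.5 CPM in E690K, a coefficient of variation of 2.86%. Its highest library was 1.09 times its lowest, and its values overlapped between the untreated and the transduced libraries. SLC30A1 was at 49.3 and 53.4 CPM in WT, 49.8 and 51.8 CPM in KO, 54.9 and 41.7 CPM in L101P, 53.1 and 52.4 CPM in E292V, and 53.0 and 53.0 CPM in E690K (coefficient of variation 7.33%). The 2 L101P libraries were its highest and its lowest, and the other 8 lay between 49.3 and 53.4 CPM.

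**Figure D2:**
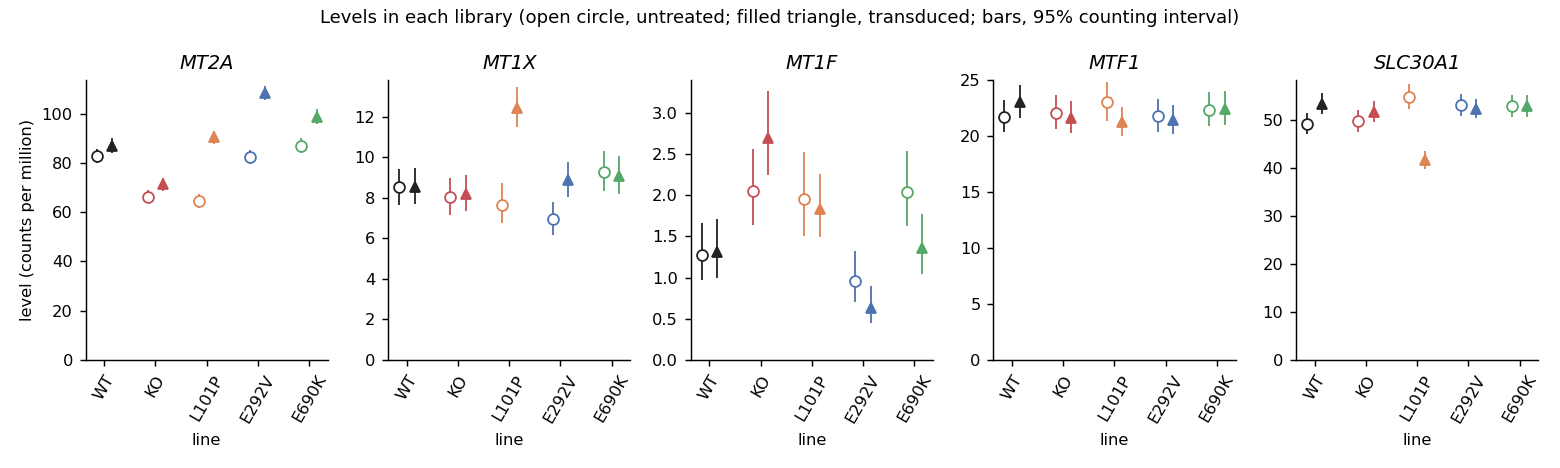
Level in CPM of the 5 detected genes in each library, by line; open circles are untreated and filled triangles transduced libraries, and bars are 95% counting intervals. All axes start at 0. MT1F differs most between lines, and MTF1 lies between 21.2 and 23.1 CPM throughout.

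Whether the vector changed these genes was asked over the 5 pairs, each line being its own control (edgeR, line and vector as additive terms). None of the 5 members tested passed an adjusted p of 0.05, where 0% of the 17978 genes passed. At an unadjusted p under 0.05 there were 1236 genes, 1 of them a member, and DESeq2 called 113 genes and limma voom 26. MT2A came nearest among the members: its log2 fold change was 0.27 (SE 0.066), a fold of 1.21, with an unadjusted p of 0.00144 and an edgeR adjusted p of 0.283. It passed under the DESeq2 Wald test (adjusted p 0.0260) and in edgeR without a filter on low counts (adjusted p 0.00459). Over its 22 alternatives the adjusted p ran from 0.00459 to 0.9996, and the log2 fold change stayed between 0.21 and 0.32.

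Line by line, the log2 change of MT2A was 0.49 in L101P, 0.40 in E292V, 0.18 in E690K, 0.11 in KO and 0.07 in WT. The 95% counting interval lay above 0 in each of the 5 lines. Without the KO pair the direction held in the 4 other lines, and the fit gave 0.31 (SE 0.078, edgeR adjusted p 0.668). Among 9458 genes that averaged 10 CPM or more, 2.98% were higher in the transduced library of all 5 lines and 5.73% were lower in all 5. Over the 4 lines other than KO these shares were 4.59% and 8.20%. Changes as large as that of MT2A were found in 3.95% of these genes in L101P, 4.27% in E292V, 10.3% in E690K, 38.6% in KO and 66.8% in WT. The pairs with the larger MT2A changes also differed more in depth, with transduced to untreated total counts at ratios of 1.63 in L101P and 1.20 in E292V and 0.973 to 1.08 in the other 3 lines, and the part of depth in the result was not tested.

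MT1X followed MT2A in 2 of the 5 lines. Its log2 change was 0.70 in L101P and 0.36 in E292V, with counting intervals above 0, and 0.00 in WT, 0.03 in KO and -0.03 in E690K, with intervals that spanned 0. Over the 5 lines the log2 fold change was 0.23 (SE 0.12, edgeR adjusted p 0.760). It was 0.28 without the KO pair, and 0.10 without the untreated or without the transduced L101P library. MT1A, of the same cluster, moved with 14 to 60 counts per library: its log2 changes were 1.23 in E690K, 1.00 in E292V, 0.52 in L101P, 0.16 in KO and -0.09 in WT, and the fit gave 0.59 (SE 0.42, edgeR adjusted p 0.862), or 0.69 without the KO pair.

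For MT1F 3 of the 5 changes lay below 0. Its log2 change was -0.61 in E292V and -0.59 in E690K, against 0.39 in KO, 0.04 in WT and -0.09 in L101P, and the counting interval excluded 0 in E690K alone (-1.12 to -0.06). The value in KO rests on the labels of that pair, and with them exchanged MT1F was lower in 4 of 5 lines. The fit over the 5 lines gave -0.14 (SE 0.20, edgeR adjusted p 0.955), and -0.28 without the KO pair (SE 0.23, edgeR adjusted p 0.999). It was nearer 0 without either E292V or either E690K library, between -0.036 and -0.027. MTF1 had log2 changes from -0.12 to 0.09, with 0 of 5 counting intervals apart from 0, and a fitted value of 0.01 (SE 0.061, edgeR adjusted p 0.994), also 0.01 without the KO pair.

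For SLC30A1 the direction differed between lines. It was lower by a log2 change of -0.40 in transduced L101P, with a counting interval of -0.49 to -0.30, and higher by 0.12 in WT (0.03 to 0.20), while the changes in KO, E292V and E690K were 0.06, -0.02 and 0.00 with intervals that spanned 0. In the L101P pair, 7.18% of the genes with at least 10 CPM changed by as much. That pair also had the widest spread of log2 changes over these genes (SD 0.248, against 0.113 to 0.187 in the other lines), the largest difference in depth, and an EGFP row that went from 1.01 to 35.9 CPM; their part in the result was not tested. Over the 5 lines the fitted value was -0.03 (SE 0.067, edgeR adjusted p 0.975), and -0.05 without the KO pair.

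Whether WT answered the vector otherwise than the 4 edited lines was put to a vector by WT term. None of the 5 members passed, and 0% of 17978 genes did (edgeR; 597 with an unadjusted p under 0.05, of which 0 members; DESeq2 and limma voom called 0). Without the KO pair edgeR called 0 genes as well. The largest difference among the 3 detected metallothioneins was that of MT1X, whose log2 change in WT was -0.28 relative to the other lines (SE 0.29, edgeR adjusted p 0.977), followed by MT2A with -0.24 (SE 0.16, edgeR adjusted p 0.977).

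**Figure D3:**
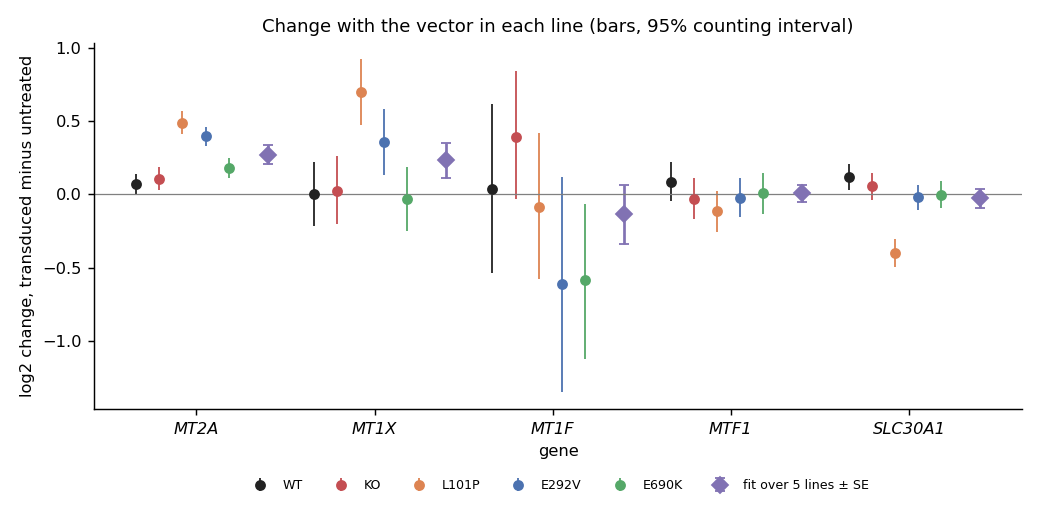
Change with the vector on the log2 scale (transduced minus untreated) for the 5 detected genes in each line, with 95% counting intervals, and the fit over the 5 lines with its SE (purple diamonds). MT2A lies above 0 in each line, and SLC30A1 is lower in L101P by a log2 change of -0.40.

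The lines were then compared with each other, the untreated and the transduced library of a line standing as its 2 samples. Both libraries of a line share the same cells, so p-values describe these lines and not genotypes over independent clones. Across the 5 lines 2 of the 5 members differed, MT1F (edgeR adjusted p 0.0303) and MT2A (edgeR adjusted p 0.0446), where 13% of all genes tested did. MT1X, MTF1 and SLC30A1 did not pass (edgeR adjusted p 0.512, 0.921 and 0.847). Without the KO pair neither MT1F nor MT2A passed (edgeR adjusted p 0.0858 for MT1F and 0.294 for MT2A), nor did either without the E292V pair (0.310 and 0.0907). MT2A was also lost without the E690K pair (edgeR adjusted p 0.162), without the untreated KO library (0.0853) or the transduced E690K library (0.120), and both were lost without the transduced KO, the transduced E292V or the untreated E690K library alone (0.0526 to 0.250).

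Means and SDs of a line are taken over its untreated and its transduced library, so the SD includes any change with the vector. By its mean over the 2 libraries (SD, n = 2), MT1F was lowest in E292V at 0.798 ± 0.234 CPM. WT followed at 1.29 ± 0.0253, E690K at 1.70 ± 0.480, L101P at 1.90 ± 0.0801 and KO at 2.38 ± 0.454 CPM. No 2 neighbours in that order differed beyond the error (edgeR adjusted p 0.479 to 0.988). Nor did KO and E690K (0.568), or KO and WT (0.190), which lie further apart. Among the pairs that include E292V, MT1F was higher than in E292V by a log2 fold change of 1.63 in KO (SE 0.33, edgeR adjusted p 0.00686), 1.31 in L101P (SE 0.33, 0.0180) and 1.15 in E690K (SE 0.33, 0.0420). In these 3 comparisons 10.7%, 13.8% and 10.4% of all genes passed. The 3 calls share the E292V libraries and were lost without the transduced E292V library (edgeR adjusted p 0.109 to 0.355). The call for E690K was lost as well under limma voom (adjusted p 0.0708), and without the KO pair (edgeR adjusted p 0.0599), where that for L101P held (0.0271). It did not pass without the WT pair (0.0517), the untreated E292V library (0.0531) or either E690K library (0.346 and 0.0731). Without the transduced KO library the KO call was lost too (edgeR adjusted p 0.125).

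MT2A gave another order. It was lowest in KO at 68.7 ± 3.62 CPM (SD, n = 2), then 77.4 ± 18.3 in L101P, 84.8 ± 3.04 in WT, 92.8 ± 8.31 in E690K and 95.3 ± 18.4 CPM in E292V. Neighbours did not differ beyond the error (edgeR adjusted p 0.412 to 0.948). The ends of this order of mean CPM, KO and E292V, were called apart, where 10.7% of all genes were. Their log2 fold change was -0.42 for KO against E292V (SE 0.11, edgeR adjusted p 0.0222). That call did not pass without the E690K pair (edgeR adjusted p 0.0536), either KO library (0.0531 and 0.300) or the transduced E292V library (0.254). In the fit E690K lay further from KO than E292V did, with KO against E690K at -0.45 (SE 0.11). That difference did not pass (edgeR adjusted p 0.0555, where 1.64% of all genes passed), while DESeq2 and limma voom called it. Of the 6 pairs of edited lines, KO against E690K, L101P against E690K and L101P against KO held 0 edgeR calls among the 5 members. Of all genes, 1.64%, 0.69% and 0.139% were called there.

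The other 3 detected genes had narrower orders. MT1X ran from 7.89 ± 1.37 CPM in E292V through 8.09 ± 0.104 in KO, 8.51 ± 0.0131 in WT and 9.15 ± 0.127 in E690K to 10.0 ± 3.37 CPM in L101P (SD, n = 2). The L101P mean rests on its transduced library. SLC30A1 ran from 48.3 ± 9.33 CPM in L101P to 53.0 ± 0.0304 CPM in E690K, and MTF1 from 21.6 ± 0.252 CPM in E292V to 22.4 ± 0.0739 CPM in E690K. None of these 3 genes passed in any of the 6 pairs of edited lines.

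Against WT, 0 of the 5 members passed in each of the 4 edited lines, where 5.38% of all genes did in E690K, 3.94% in L101P, 1.8% in KO and 1.05% in E292V (edgeR). At an unadjusted p under 0.05 there were 2 members in KO, 1 in E292V and 0 in L101P and E690K. Of the 17978 genes tested, 2532 in KO, 1857 in E292V, 3292 in L101P and 3474 in E690K were under it too. The DESeq2 Wald test and limma voom called 0 members in each line. These contrasts share the WT libraries. MT1F had the largest values, with log2 fold changes of 0.92 in KO (SE 0.32, edgeR adjusted p 0.190), 0.60 in L101P (SE 0.32, 0.348), 0.43 in E690K (SE 0.32, 0.521) and -0.71 in E292V (SE 0.33, 0.479). Single libraries moved these values. MT1F in KO was 0.55 without the transduced and 1.24 without the untreated KO library, in E690K 0.15 without the untreated and 0.69 without the transduced E690K library, and in E292V -0.45 without the transduced and -0.997 without the untreated E292V library. MT2A had -0.28 in KO (SE 0.11, edgeR adjusted p 0.242), -0.11 in L101P, 0.15 in E292V and 0.17 in E690K. For MT2A in KO the result depended on L101P, since without the untreated or the transduced L101P library its edgeR adjusted p was 0.0355 and 0.0354, and without that whole pair 0.0533. Without the untreated L101P library MT1X passed in L101P against WT (log2 fold change 0.56, edgeR adjusted p 0.0434), against 0.26 (SE 0.18, 0.498) with it.

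**Figure D4:**
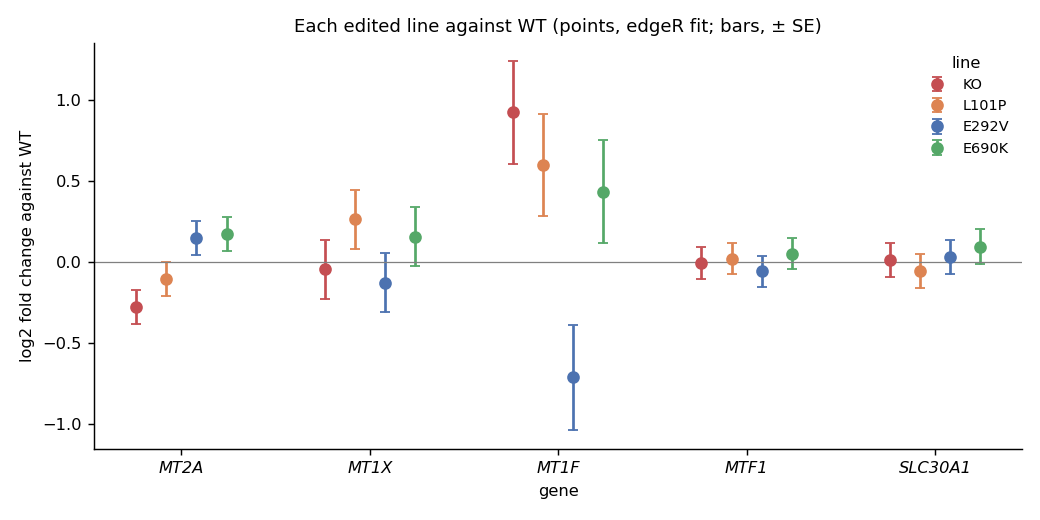
Log2 fold change of each edited line against WT for the 5 detected genes, from the edgeR fit, with bars of 1 SE either side. MT1F spans -0.71 in E292V to 0.92 in KO, and the MTF1 and SLC30A1 points lie within 0.1 of 0.

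Because the series title names variants of type 1 and type 2, L101P was set against the mean of E292V and E690K. With 1 line on one side and 2 on the other, variant type and line cannot be told apart. None of the 5 members passed, where 5.79% of all genes did (edgeR). An unadjusted p under 0.05 was found for 2 members and for 3416 of the 17978 genes tested. On the log2 scale MT1F had 0.74 (SE 0.27, edgeR adjusted p 0.152), and MT2A had -0.27 (SE 0.092, 0.122), MT1X 0.25 (SE 0.16, 0.433), SLC30A1 -0.12 (SE 0.092, 0.532) and MTF1 0.02 (SE 0.083, 0.919). Each L101P library decided calls here. Without the untreated one, MT1X (0.54, edgeR adjusted p 0.0230) and SLC30A1 (-0.33, 0.0223) passed, and without the transduced one MT2A did (-0.44, edgeR adjusted p 0.0119).

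MT1F and MT2A ranked the lines differently. Over the 10 libraries, which share 5 lines, Pearson's r of their log2 levels was -0.69 (Spearman's rho -0.55). For MT1X and MT2A, r was 0.46 (rho 0.78), and for MT1F and MT1X 0.13 (rho -0.02). SLC30A1 and MT1X had r of -0.79 and rho of -0.36, the transduced L101P library being the highest for one and the lowest for the other. MTF1 and SLC30A1 had r of 0.65 and rho of 0.77. Without the KO pair, an alternative chosen after seeing the data, MT1F and MT2A had r of -0.57 and rho of -0.26 over 8 libraries. The other 4 r values, in the same order, were 0.41, 0.35, -0.83 and 0.69. Given as descriptions of these libraries, the values share depth and line.

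**Figure D5:**
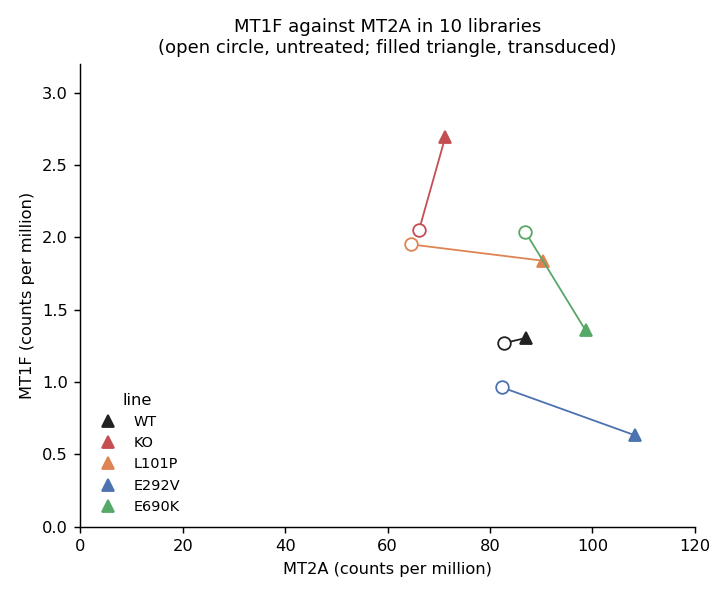
MT1F against MT2A in CPM in 10 libraries, with the untreated (open circle) and the transduced library (filled triangle) of a line joined. Both KO libraries lie at high MT1F and low MT2A, and both E292V libraries below 1 CPM of MT1F.

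The genes whose levels over the 10 libraries were most like those of the members were sought among 1530 genes that averaged 10 CPM or more and had a standard deviation of at least 0.2 in log2(CPM + 1). For MT2A these were ARSI, an arylsulfatase (r 0.929), EFEMP1, an extracellular matrix protein (0.887), and GADD45B, a stress-response gene (0.861). ARSI was at 9.26 and 12.6 CPM in WT, 7.71 and 7.82 CPM in KO, 6.73 and 10.00 CPM in L101P, 8.50 and 15.4 CPM in E292V, and 11.3 and 12.2 CPM in E690K. It too was higher in each library labelled transduced, or in all lines but KO with the KO labels exchanged. Its choice for likeness to MT2A favours that pattern. For MT1F they were SLC41A2, a magnesium transporter (0.944), GNG2, a G protein subunit (0.942), and RAB27B, a GTPase of vesicle secretion (0.941). RAB27B was lowest in the E292V libraries, at 35.3 and 30.6 CPM, and at 48.3 to 64.6 CPM in the other 8. For MT1X they were GLP2R, a peptide hormone receptor (0.883), LMO4 (0.861) and DAP (0.855). For SLC30A1 they were ZNF780B, a zinc-finger protein (0.929), DDI2 (0.918) and DYNC1H1 (0.871). For MTF1 they were POLR2A, the large subunit of RNA polymerase II (0.779), LTB4R (0.736) and KLHL15 (0.727). The mean of the 6 metallothionein members was closest to FAM213B (0.946), CAVIN3 (0.940) and TIMP4 (0.933). With MT1E, MT1G and MT1M at 0 counts, this mean varies only through MT1F, MT1X and MT2A. From untreated to transduced L101P, ZNF780B went from 18.1 to 9.85 CPM, DDI2 from 43.1 to 26.6 and DYNC1H1 from 743 to 543 CPM. In that pair FAM213B went from 30.9 to 46.0 CPM, CAVIN3 from 29.8 to 49.8 and TIMP4 from 14.2 to 23.1 CPM. The highest of many correlations over 10 libraries is large by selection, and no test was made of it.

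Other genes of zinc handling were followed as a list of 23 zinc transporters, the SLC30 exporters and SLC39 importers beside SLC30A1, of which 18 passed the filter. With the vector 0 of the 18 were called, with a median log2 fold change of 0.05 against 0.00 over all genes. Against WT 0 of 18 were called in each line, with medians of 0.06 in E690K and L101P and 0.00 in KO and E292V, beside medians of -0.02 to 0.00 over all genes. In L101P against the mean of E292V and E690K 1 of 18 was called, where 5.79% of all genes were. This gene was SLC39A10, a plasma membrane zinc importer. It was lower in L101P than in that mean by 0.29 on the log2 scale (SE 0.071, edgeR adjusted p 0.0342). SLC39A10 was at 53.9 and 52.7 CPM in L101P, 67.8 and 69.4 CPM in E292V, and 62.5 and 64.2 CPM in E690K. In WT it was at 54.5 and 64.3 CPM, and in KO at 55.3 and 58.6 CPM. For L101P against WT it was not called (-0.11, SE 0.082, edgeR adjusted p 0.509). Of 15 other metallothionein genes and pseudogenes, 6 had a row and 1 (MT1A) passed the filter, and it was called neither with the vector nor in the contrasts with WT or of L101P with the other variants.

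Copper also binds metallothioneins, and of 12 genes of copper handling 11 passed the filter. None was called with the vector, and 2 of 11 were lower in E690K than in WT, where 5.38% of all genes were called: ATOX1, a copper chaperone (-0.42, SE 0.10, edgeR adjusted p 0.0334), and STEAP2, a metalloreductase (-0.38, SE 0.098, 0.0406). In KO, L101P and E292V 0 of 11 were called, and in the test for any difference among the lines 1 of 11 was, beside 13% of all genes. The list's median in E690K was -0.21, against -0.02 over all genes.

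Among 14 genes of the heat shock and heavy metal response, 0 were called with the vector, with a median of 0.00. Against WT, 3 of 14 were called in KO (1 higher, 2 lower), where 1.8% of all genes were, and 3 of 14 in L101P (1 higher, 2 lower), where 3.94% were. In E292V 0 of 14 were called, beside 1.05%, and in E690K 1 of 14, lower, which is near the 5.38% over all genes. In the test for any difference among the 5 lines 6 of 14 were called, beside 13%. HMOX1, the heme oxygenase that rises with cadmium and oxidative stress, fell by 0.93 in KO (SE 0.20, edgeR adjusted p 0.0354), by 0.98 in L101P (SE 0.20, 0.0179) and by 0.88 in E690K (SE 0.20, 0.0232) on the log2 scale. It was at 397.6 and 387.6 CPM in WT, 255.7 and 153.9 CPM in KO, 237.9 and 155.7 CPM in L101P, 276.3 and 347.9 CPM in E292V, and 197.6 and 213.4 CPM in E690K, untreated and transduced. Both WT libraries were above all others, which the naming of genes called against WT favours. In E292V against WT HMOX1 was not called (-0.33, SE 0.20, edgeR adjusted p 0.647). TXNRD1, a thioredoxin reductase, was higher in KO (0.33) and L101P (0.29), HSPA1B, a heat shock chaperone, was lower in KO (-0.49), and HSPB1, a small heat shock protein, was lower in L101P (-0.33).

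Glucocorticoid-responsive genes were listed because metallothioneins respond to the same hormones, and 11 of 12 passed the filter. With the vector 0 of 11 were called (median 0.04). Of the 11, 4 were called in E690K against WT (5.38% of all genes), 3 in L101P (3.94%), 2 in KO (1.8%) and 1 in E292V (1.05%), and 7 in the test for any difference among the lines (13%). The genes called included ANGPTL4, a lipase inhibitor, in KO (-0.81, SE 0.15, edgeR adjusted p 0.0192), CAVIN2, a caveolar protein, in E292V (-0.80, SE 0.16, 0.0353), and SGK1, a kinase, in E690K (0.57, SE 0.13, 0.0208). BIRC3, an inhibitor of apoptosis, was higher in E690K (0.45, SE 0.089, edgeR adjusted p 0.0111). DUSP1, a phosphatase of MAP kinases, was lower in L101P than in WT (-0.63) and than in the mean of E292V and E690K (-0.75, SE 0.083, edgeR adjusted p 8.2e-04). CAVIN2 was higher in L101P than in that mean (0.72, edgeR adjusted p 0.00860), and ANGPTL4 was lower (-0.59, 0.0232). The remaining genes called against WT fall outside the rule for named genes and were chosen after their values were seen. NR3C1, the glucocorticoid receptor, was higher in KO (0.34, edgeR adjusted p 0.0389), L101P (0.36, 0.0182) and E690K (0.32, 0.0255). CEBPD, a transcription factor, was lower in L101P (-0.52, edgeR adjusted p 0.0392) and E690K (-0.67, 0.00892).

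Genes next to the cluster at 16q13 gave the local background. Of 10 flanking genes 8 passed the filter, and 0 of 8 were called in the vector effect, the 4 contrasts with WT, the contrast of L101P with E292V and E690K, and the test for any difference among the 5 lines. Their median log2 fold changes lay between -0.08, in KO, and 0.05, in E690K.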

How the data were processed

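RNA-seq was done on 10 libraries of 5 A549 lines. The values deposited are raw counts of reads for each gene. Per the submitters' processing notes Subread, featureCounts, edgeR, limma and GRCh38 were used, while the annotation, strand use and treatment of multi-mapping reads are not given in the sources used here. Of the rows, 98.7% matched a symbol of GENCODE release 29. R 4.3.3 with edgeR 4.0.16 was used (limma 3.58.1, DESeq2 1.42.0). Its filterByExpr left 17978 genes, and TMM factors were 0.972 to 1.03.

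The vector effect and the line contrasts came from an additive quasi-likelihood fit of line and vector with 4 residual degrees of freedom. A further fit with an interaction of vector and WT had 3. P-values were adjusted by Benjamini-Hochberg over all genes, with a threshold of 0.05. The SE is the log2 fold change over the square root of F. Nothing says that libraries came from separate cultures, so p-values measure the spread between these samples, which may be technical. Libraries are paired by cell line, and within a pair the deviations correlated at 0.322 to 0.740. For L101P that value, 0.322, was below its highest correlation with a library of another line (0.358), and for WT it was 0.436 against 0.420. Single-library levels are CPM with Wilson 95% intervals on read pairs, and changes within a line carry exact binomial (Clopper-Pearson) intervals, without molecular identifiers. In data simulated for 17978 genes the vector effect recovered 79.1% of 1.5-fold and 97.0% of 2-fold changes, and E292V against WT 56.7% and 83.6%. Each of these folds was put on 67 genes, leaving out genes of low mean level. Apart from them each gene had the same mean share in all libraries, with no differences between lines. In each comparison 11 unchanged genes were called. The shares describe that setting and not the members in the real data.

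The members and lists were chosen with earlier results of these data known. The members are always named. From each list the genes past the threshold are named, at most the 3 with the largest absolute log2 fold change in each direction over all contrasts together. For likeness the 3 genes with the highest Pearson r were taken. Alternatives were DESeq2 size factors, no filter, at least 10 counts in every library, DESeq2, limma voom, counts divided by 2, no block for line, and each library or pair left out. Correlations, shares of genes with 1 direction in every line, and MT1A without the KO pair were added after seeing the data.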

Additional observations from a re-analysis of the deposited data

Results flagged for a closer look

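Of 15 sets of 5 values (levels in the untreated libraries, levels in the transduced libraries and changes with the vector, for the 5 detected genes), 3 held a value whose gap to the nearest was above 0.71 of the range, which about 1 in 20 sets does by chance. All 3 concern L101P and draw on its transduced library, and both SLC30A1 values use the same level. The sets are not independent, since the genes share libraries and the changes are computed from the levels. The 3 can therefore not be weighed against that rate. MT1X was at 12.4 CPM in transduced L101P, a gap of 0.789 of the range of the transduced libraries. SLC30A1 was at 41.7 CPM in the same library, a gap of 0.859. The log2 change of SLC30A1 with the vector was -0.40 in L101P, a gap of 0.734. The difference between L101P and the other lines was not tested.

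MT3, the brain-enriched metallothionein, is outside the comparisons. It had 28 counts in transduced L101P (0.289 CPM) and 4 in transduced E292V, and 0 in the other 8 libraries, the 5 untreated ones among them.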

How the results depend on the processing

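Of 22 alternatives for the vector effect, the count of members past the threshold was 1 (MT2A) without a filter on low counts and 1 under the DESeq2 Wald test, and 0 in the others. Without the block for line (no replicate block) it was 0 and MT2A had 0.27 (SE 0.11, edgeR adjusted p 0.9996). In L101P against the mean of E292V and E690K the count was 1 (MT2A) without the filter. Leaving out libraries or pairs, the count ran from 0 to 1 for KO and for L101P against WT, from 0 to 2 for L101P against that mean, from 0 to 3 across the 5 lines, and from 0 to 8 for the 6 pairs of edited lines, where 4 calls were made on all libraries.

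Some directions turned. MTF1 in KO against WT was -0.0070, and 0.0020 with counts divided by 2. With libraries left out, the log2 fold changes that turned were, for MT1X, -0.17 to 0.10 in KO, -0.087 to 0.56 in L101P, -0.26 to 0.016 in E292V and -0.0015 to 0.30 in E690K against WT, and -0.10 to 0.54 for L101P against E292V and E690K. MT2A in L101P against WT ran from -0.28 to 0.051. For MTF1 they were -0.019 to 0.028 with the vector, -0.060 to 0.060 in KO, -0.032 to 0.083 in L101P, -0.11 to 0.0035 in E292V and -0.0024 to 0.11 in E690K against WT, and -0.023 to 0.070 for L101P against E292V and E690K. For SLC30A1 they were -0.068 to 0.055 with the vector, -0.078 to 0.12 in KO, -0.26 to 0.14 in L101P and -0.058 to 0.13 in E292V against WT, and -0.33 to 0.072 for L101P against E292V and E690K.

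Over all genes, calls rose without the filter from 0 to 237 with the vector, 323 to 982 in KO, 709 to 1437 in L101P, 189 to 662 in E292V, 967 to 1659 in E690K, 1041 to 1707 for L101P against E292V and E690K, 2337 to 3661 across the 5 lines and 0 to 9 for the interaction. For L101P against E690K they rose from 124 to 617, for KO against E690K from 295 to 787 and for L101P against KO from 25 to 186. Under DESeq2 they were 113 with the vector, 744 in KO, 1236 in L101P, 432 in E292V, 1464 in E690K, and 395, 624 and 87 for those 3 pairs. Under limma voom they were 26 with the vector and 14 for L101P against KO. With libraries left out they ran from 0 to 206 with the vector, 25 to 1226 in KO, 180 to 1967 in L101P, 13 to 810 in E292V, 169 to 2147 in E690K, 359 to 2647 for L101P against E292V and E690K, 931 to 4555 across the 5 lines and 0 to 6 for the interaction. The causes were not tested. Low counts limit the precision for MT1F (60 to 219 in a library) and MT1A (14 to 60).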
